A study of Mus musculus with 22 samples.

Results

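The glucocorticoid receptor gene Nr3c1 and 8 genes that the receptor is known to induce, Fkbp5, Tsc22d3, Sgk1, Klf9, Zbtb16, Ddit4, Mt1 and Mt2, were followed through thymus, cerebrum and cerebellum of Tol and wild-type (WT) mice. Members were taken by symbol, after Ensembl gene IDs were matched to GRCm38 symbols, and all 9 of 9 were found among the 34585 genes of the count tables. The Tol mice were C57BL/6 animals heterozygous for the Tol transgene, a large open reading frame of shuffled reporter and modifier protein fragments. It is driven by the CAG promoter, which is active in most cell types, and was placed 3′ of Col1a1 by recombinase-mediated cassette exchange in C57BL/6J embryonic stem cells. WT mice were littermates without the transgene, no group received a treatment, and the study's methods give an age of 7 to 14 weeks for animals used in experiments. Poly(A)-selected RNA of whole tissue was sequenced from 4 Tol and 4 WT thymus, 4 Tol and 4 WT cerebrum, and 2 Tol and 4 WT cerebellum libraries. The genotype comparison asked whether the transgene was accompanied by other changes in transcription, and the organ comparison gave the setting in which each gene was read. The study describes these data as coming from groups of mice, so libraries of different organs may share an animal, but the labels tie no library to a mouse. P-values therefore measure the spread between these libraries.

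The glucocorticoid receptor is a nuclear receptor that waits in the cytoplasm in a complex with heat shock proteins and immunophilins. Binding of corticosterone, the main glucocorticoid of mice, moves it to the nucleus, where it binds palindromic DNA elements and raises the transcription of target genes. In the thymus glucocorticoids kill immature thymocytes, and in the brain they act on neurons, astrocytes, oligodendrocytes and vessels. The targets have different roles. Fkbp5 encodes an immunophilin that lowers the receptor's affinity for hormone and so closes a feedback loop. Tsc22d3 encodes GILZ, an anti-inflammatory leucine zipper protein, and Klf9 and Zbtb16 encode zinc finger transcription factors. Sgk1 encodes a kinase that regulates ion transport, Ddit4 encodes REDD1, an inhibitor of mTORC1 signalling, and Mt1 and Mt2 encode metallothioneins, small proteins that bind zinc and copper.

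Promoter sequences were read from RefSeq on GRCm38.p6, as the 250 bases before each annotated start. Windows were matched for 7 of the 9 genes, 14 windows in all, and none was matched for Nr3c1 and Zbtb16. The 4 windows below are a selection from genes with differences described later, taken because they differ in hormone and metal patterns. Of the Sgk1 windows, the one with the hormone palindrome was taken. Tsc22d3, Ddit4 and Fkbp5 had differences described later too, but their windows, without the palindrome, are not shown. The selection therefore does not link differences to patterns. Letter patterns were searched on both strands. The palindrome GNACANNNTGTNC is the core of a glucocorticoid response element and was found in 0.387% of all 32851 windows of the same length. Its 6-letter arm TGTTCT was found in 16.085% of windows. The metal pattern TGCNCNC, which is looser than the core of a metal response element, was found in 44.413%. Capitals mark the palindrome in Sgk1, the palindrome and the metal pattern in Mt1, and the metal pattern in Mt2. Klf9 held none of the patterns and is given in lower case.
Sgk1, chr10:21993640-21993889, plus strand: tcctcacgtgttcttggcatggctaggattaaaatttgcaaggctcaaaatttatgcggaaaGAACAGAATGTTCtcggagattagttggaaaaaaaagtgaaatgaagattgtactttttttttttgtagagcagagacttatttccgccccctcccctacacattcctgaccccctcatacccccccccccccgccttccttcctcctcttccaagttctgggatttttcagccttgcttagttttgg
Mt1, chr8:94178839-94179088, plus strand: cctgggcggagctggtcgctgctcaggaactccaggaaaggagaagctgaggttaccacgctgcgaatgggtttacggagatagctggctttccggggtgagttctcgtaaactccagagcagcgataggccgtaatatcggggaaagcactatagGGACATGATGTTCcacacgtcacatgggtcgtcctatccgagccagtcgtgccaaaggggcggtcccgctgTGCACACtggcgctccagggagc
Mt2, chr8:94172368-94172617, plus strand: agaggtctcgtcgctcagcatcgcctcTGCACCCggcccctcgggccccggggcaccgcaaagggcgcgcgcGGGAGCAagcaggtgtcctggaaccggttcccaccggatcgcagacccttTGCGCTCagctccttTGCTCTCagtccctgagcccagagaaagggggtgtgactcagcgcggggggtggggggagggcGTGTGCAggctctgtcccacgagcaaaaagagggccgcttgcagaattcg
Klf9, chr19:23140976-23141225, plus strand: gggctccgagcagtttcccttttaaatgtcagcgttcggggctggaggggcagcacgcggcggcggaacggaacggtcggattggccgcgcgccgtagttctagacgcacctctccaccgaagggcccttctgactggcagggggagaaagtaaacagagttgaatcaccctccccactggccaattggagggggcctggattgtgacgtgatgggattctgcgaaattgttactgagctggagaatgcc

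The palindrome GAACAGAATGTTC stood 188 to 176 bases before this start of Sgk1, one of the 6 annotated starts of that gene, and its arms made up 2 of the 3 copies of TGTTCT in the window. In Mt1 the palindrome GGACATGATGTTC stood 94 to 82 bases before the start, with 1 match of the metal pattern at 23 to 17 bases. Mt2 held 5 metal cores and no palindrome, and 4 or more metal cores occurred in 1.2815% of all windows. None of the other 12 windows of the 7 genes held the palindrome. A match describes letters only, and a window without one does not say that the receptor is not bound elsewhere.

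On GRCm38, Nr3c1 lies on chromosome 18 (39410545 to 39519421, minus strand), Fkbp5 on chromosome 17 (28399094 to 28517527, minus) and Tsc22d3 on chromosome X (140539528 to 140600659, minus). Klf9 lies on chromosome 19 (23141226 to 23168134, plus), Zbtb16 on chromosome 9 (48654297 to 48836222, minus), and Sgk1 (21882184 to 21999903, plus) and Ddit4 (59949669 to 59951834, minus) on chromosome 10. Mt2 (94172664 to 94173568, plus) and Mt1 (94179082 to 94180327, plus) are neighbours on chromosome 8. The exons of Mt2 overlap those of Gm45774 on the opposite strand. The library kit marks strand, but whether counting used it is not given in the sources used here, so reads of Gm45774 in the Mt2 value cannot be told apart.

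Library totals ran from 14543698 to 34776973 counts. The Tol transcript was at 19.8 to 25.4 CPM (counts scaled to a common library total) in Tol thymus, 147 to 175 CPM in Tol cerebrum and 191 and 140.3 CPM in Tol cerebellum. WT libraries lay between 0 and 0.12 CPM, so genotype labels and transcript went together in all 22 libraries. The markers of 1 library went against its label. The library labelled cerebellum Tol 2 held 221 CPM summed over 8 markers of cerebellar granule cells, against 6079 CPM in Tol 1 and between 2593 and 5691 CPM in the WT libraries. Each of the 8 markers stood at 3.86% to 41.7% of the lowest other cerebellum library, with none at 0, while a sum of 8 forebrain markers was 53.0 CPM against 164 to 313 CPM in the other cerebellum libraries. In cerebellum the member differences are therefore given with and without it, as are other genes induced by glucocorticoids and genes that assist the receptor. The DESeq2 calls, the other lists and the correlations include it. In cerebrum, the striatal marker Ppp1r1b was at 778 CPM in WT 3 and 378 CPM in Tol 4, against 47.1 to 104 CPM in the other 6 libraries.

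In WT mice the receptor gene was expressed in every organ, while most of its targets differed between organs more than the receptor did. To compare genes, CPM were divided by the length in kb of the principal transcript. In thymus Fkbp5 led with 98.1 ± 9.46 CPM per kb (SD, n = 4 here and below), followed by Tsc22d3 (69.3 ± 15.6), Ddit4 (49.8 ± 8.72) and Nr3c1 (41.6 ± 2.1). Mt1 (18.1 ± 3.65), Mt2 (12.8 ± 5.50), Sgk1 (10.3 ± 0.522), Klf9 (3.43 ± 0.309) and Zbtb16 (1.05 ± 0.200) were lower. The ranges of mean ± SD of Tsc22d3 and Ddit4, of Ddit4 and Nr3c1, and of Mt1, Mt2 and Sgk1 overlapped between neighbours in this order.

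In cerebrum the metallothioneins led, with 175 ± 13.7 CPM per kb for Mt1 and 107 ± 22.5 for Mt2. Klf9 (52.2 ± 13.0), Tsc22d3 (46.2 ± 7.47), Sgk1 (35.5 ± 10.3), Nr3c1 (24.0 ± 3.19) and Ddit4 (21.7 ± 2.93) formed a middle range in which each neighbour overlapped the next. Zbtb16 (10.9 ± 3.22) and Fkbp5 (8.14 ± 1.89) came last and overlapped too. The first gene of the thymus was thus the last of the cerebrum. In cerebellum the order again began with Mt1 (242 ± 43.0 CPM per kb) and Mt2 (168 ± 23.4), and ended with Fkbp5 (2.65 ± 0.933) and Zbtb16 (1.84 ± 0.466). Between them stood Tsc22d3 (61.4 ± 8.41), Sgk1 (43.4 ± 13.9), Klf9 (42.1 ± 6.30), Ddit4 (23.7 ± 2.44) and Nr3c1 (20.5 ± 1.80), with Klf9 and Ddit4 as the pair of neighbours whose ranges did not overlap.

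**Figure D1:**
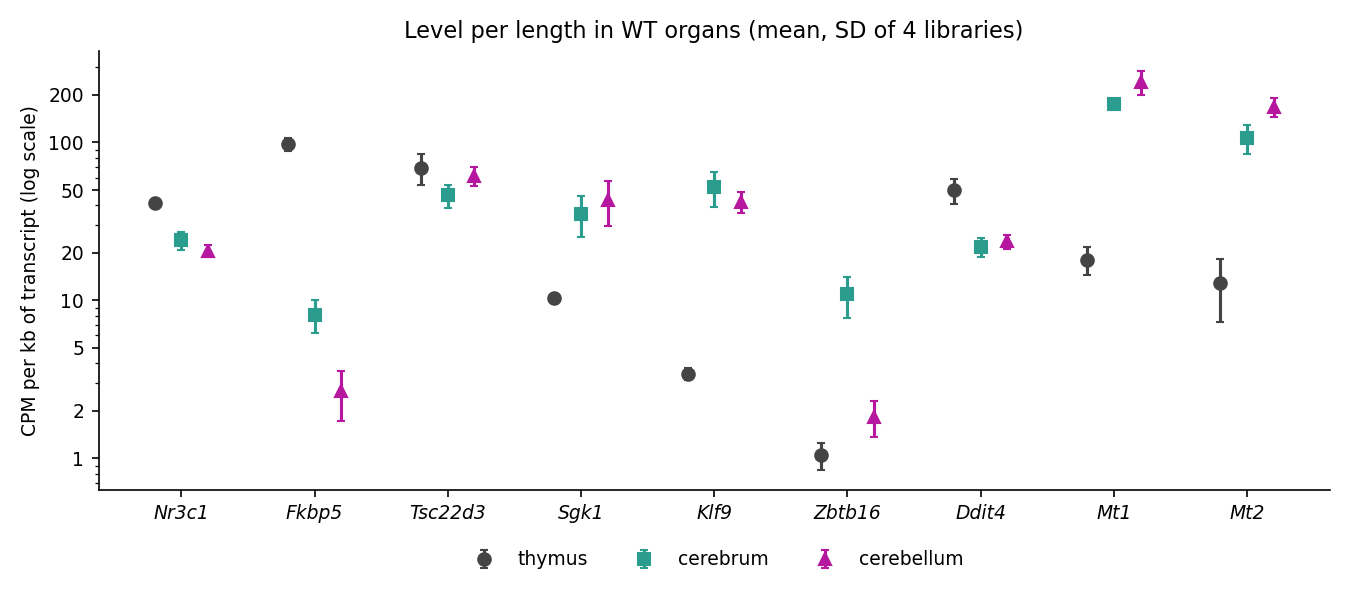
Level of the receptor gene and its 8 targets in WT thymus, cerebrum and cerebellum, as CPM per kb of transcript on a log axis, with points at the mean and bars at 1 SD of 4 libraries. Fkbp5 spans 98.1 CPM per kb in thymus to 2.65 in cerebellum and Mt1 runs the other way, from 18.1 to 242, while Nr3c1 stays between 20.5 and 41.6.

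Between organs, per gene, all 9 genes differed between WT thymus and WT cerebrum with an adjusted p under 0.05 (edgeR quasi-likelihood test on 12 WT libraries), where 84.3% of all genes tested did. In thymus the higher genes were Fkbp5 (log2 fold change 3.61), Ddit4 (1.22), Nr3c1 (0.82, adjusted p = 4.21e-06) and Tsc22d3 (0.61, adjusted p = 0.00376). The lower ones were Klf9 (-3.91), Zbtb16 (-3.36), Mt1 (-3.25), Mt2 (-3.05) and Sgk1 (-1.75). Cerebellum and cerebrum differed for 4 of the 9, where 51.1% of all genes did. Zbtb16 (-2.58) and Fkbp5 (-1.63) were lower in cerebellum, and Mt2 (0.64, adjusted p = 0.0291) and Mt1 (0.45, adjusted p = 0.0179) were higher. The call of Mt2 was lost with the replicate number as a block (adjusted p = 0.0602), under which Tsc22d3 passed (0.41, adjusted p = 0.0307). It was also lost without cerebrum WT 2, 3 or 4 or cerebellum WT 2 or 4 (adjusted p of 0.0537 to 0.0784). Nr3c1 (-0.23, adjusted p = 0.0601) passed as lower in cerebellum under 3 of 7 alternatives, among them DESeq2 (adjusted p = 0.0177). It also passed in 3 of 12 fits without single libraries. Between thymus and cerebellum 8 of 9 passed, where 83.5% of all genes did, and Tsc22d3 was the exception (0.21, adjusted p = 0.249). The 3 comparisons share their WT libraries.

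In Tol thymus Klf9 was the 1 member that passed the test. Its levels were 9.26, 7.18, 9.67 and 8.33 CPM in the 4 Tol libraries and 15.9, 16.6, 15.6 and 13.4 CPM in the 4 WT libraries. Every Tol library lay below every WT library, and the gap between the groups was wider than the range within either. Klf9 fell by 0.83 on the log2 scale (SE 0.11, adjusted p = 0.0233), to 0.564 of the WT level. Of all genes, 16 of 16248 (0.0985%) passed. The call was lost without any 1 of 5 libraries. Klf9 stayed between -0.75 and -0.90, but its adjusted p rose to 0.0646 without Tol 2, 0.0874 without Tol 4, 0.148 without WT 1, 0.0884 without WT 2 and 0.0519 without WT 3.

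The receptor gene itself was next in thymus. Nr3c1 was at 244, 195, 222 and 188 CPM in Tol and 279, 261, 253 and 279.6 CPM in WT, and the groups did not overlap. The difference was -0.33 (SE 0.08) and did not pass after adjustment (adjusted p = 0.0841). Fkbp5, the feedback immunophilin, was at 314, 317, 294 and 290.4 CPM in Tol against 422, 334, 388 and 370.3 CPM in WT. These groups also did not overlap (-0.31, SE 0.08, adjusted p = 0.0858). Tsc22d3 was at 90.6, 113, 118 and 104 CPM in Tol and 132, 139, 175 and 101 CPM in WT, with WT 4 among the Tol values (-0.36, SE 0.15, adjusted p = 0.171).

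The other 5 targets showed no difference from WT in thymus that this test could call, with adjusted p from 0.73 to 0.878. Sgk1 was at 23.8 to 27.5 CPM in Tol, against 24.0 to 27.1 CPM in WT. Ddit4 (73.4 to 93.0 against 76.1 to 109 CPM), Mt1 (8.59 to 11.9 against 7.80 to 12.6 CPM) and Zbtb16 (3.82 to 5.99 against 3.99 to 6.44 CPM) overlapped throughout. Mt2 overlapped as well (4.62 to 6.76 against 4.51 to 10.7 CPM), with WT 3 apart from the other 3 WT libraries. In counts, 7 of 9 members were lower in Tol, 4 with an unadjusted p under 0.05 (11.1% of all genes were lower at that level) and 3 with groups that did not overlap (5.50% of all genes). The median of the members was -0.16 and that of all genes 0.01.

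By DESeq2, 3 of 9 members passed in thymus, all lower in Tol, where 9.68% of all genes passed in either direction. They were Klf9 (adjusted p = 1.01e-07), Fkbp5 (0.00603) and Nr3c1 (0.00705). The edgeR test gave the same 3 genes when Tol 1, the library with the highest total, was left out (adjusted p of 0.00667, 0.0245 and 0.00782), and the calls over all genes then went from 16 to 2978. Markers of fibroblasts were lower in the same Tol libraries, 8 of 8 in direction and 6 with an unadjusted p under 0.05. Their sum was 209 to 306 CPM in Tol, against 270 to 439 CPM in WT, with none at 0. The sum of 12 thymocyte markers was 11180 to 13750 CPM against 13640 to 15020 CPM, but 6 of the 12 were lower and 6 higher, at a median of 0.01. Other lists shifted as well. Adipocyte markers were 7 lower and 1 higher, at a median of -0.61, with 0 at an unadjusted p under 0.05. B cell markers were 6 lower, 3 of them with an unadjusted p under 0.05, and 2 higher. Thymic epithelium markers were 8 of 8 higher, 3 with an unadjusted p under 0.05. The part of any of these in the member values was not tested. In whole tissue fewer cells of a type and less RNA per cell cannot be told apart.

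**Figure D2:**
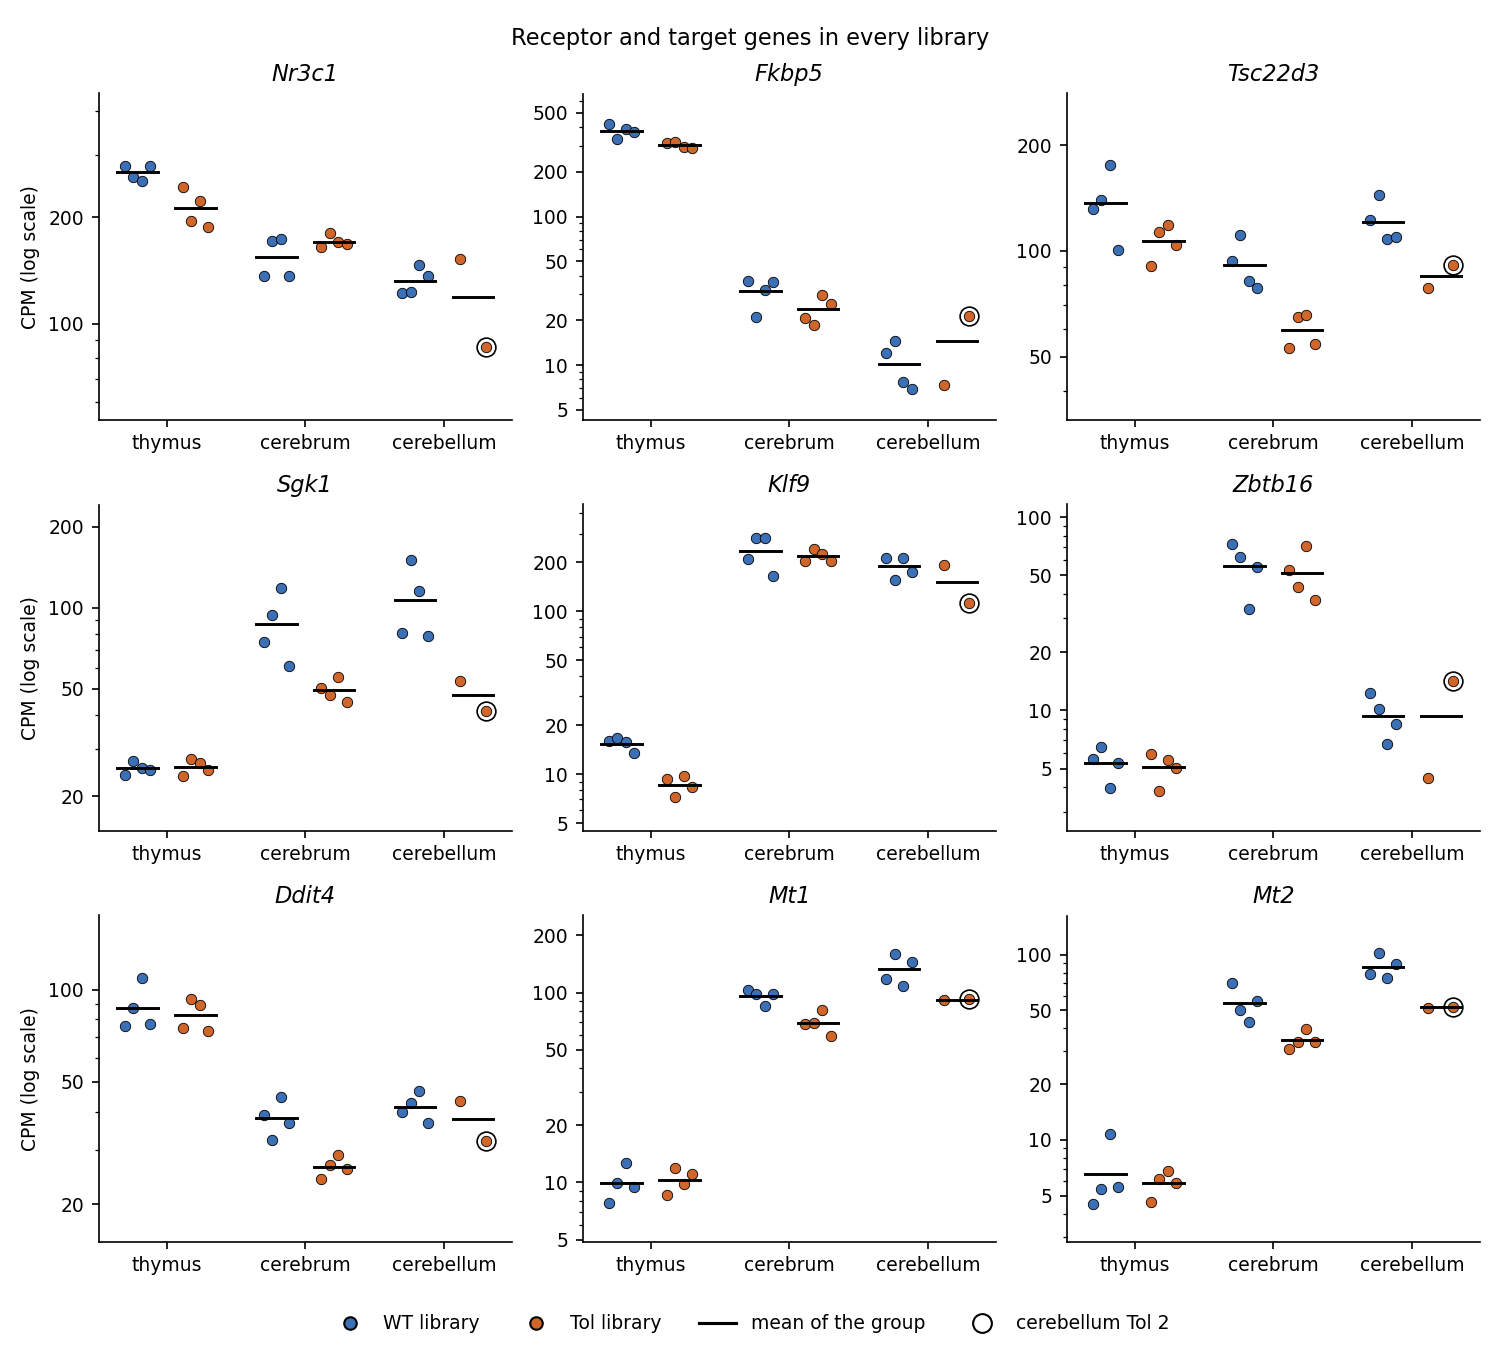
CPM of each of the 9 genes in all 22 libraries, on log axes, with WT in blue, Tol in orange, a line at the group mean, and a circle around the library labelled cerebellum Tol 2. Klf9 separates the genotypes in thymus (7.18 to 9.67 against 13.4 to 16.6 CPM), and Sgk1, Tsc22d3, Mt1 and Mt2 separate them in cerebrum and in cerebellum.

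In Tol cerebrum 5 other targets stood apart from WT, Sgk1, Mt2, Tsc22d3, Ddit4 and Mt1, each lower in every Tol library than in any WT library. The edgeR test called none of the 9 after adjustment, as it called 0% of all 15596 genes, with 756 lower and 750 higher at an unadjusted p under 0.05. DESeq2 called all 5 and no other member, where it called 1.26% of all genes in either direction and 0.682% as lower in Tol. At an unadjusted p under 0.05 edgeR gave the same 5 of 9, against 4.85% of all genes lower at that level. Groups that did not overlap, with Tol lower, made up 3.16% of all genes. The median of the members was -0.47, and that of all genes was -0.0049.

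Sgk1 was at 50.5, 47.4, 55.2 and 44.7 CPM in Tol and 74.4, 94.0, 119 and 60.9 CPM in WT. The WT libraries spread over a wider range, with WT 3 at the top. The difference was -0.81 (SE 0.18, edgeR adjusted p = 0.224, DESeq2 adjusted p = 0.0041). Ddit4, the mTORC1 inhibitor, was at 24.1, 26.9, 28.9 and 26.1 CPM in Tol against 39.1, 32.3, 44.6 and 36.6 CPM in WT. Its Tol libraries all stood below the lowest WT library (-0.52, SE 0.10, edgeR adjusted p = 0.196, DESeq2 0.00275).

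Tsc22d3, the gene of GILZ, was at 52.9, 65, 65.6 and 54.2 CPM in Tol and 93.4, 111, 82.0 and 78.3 CPM in WT. The groups did not overlap (-0.62, SE 0.12, edgeR adjusted p = 0.201, DESeq2 0.00186). Mt1 was at 68.1, 69.3, 80.7 and 58.9 CPM in Tol and 103, 98.3, 85.3 and 98.6 CPM in WT. Tol 3 came nearest to WT 3 (-0.47, SE 0.10, edgeR adjusted p = 0.204, DESeq2 0.00366). Mt2 was at 31.1, 33.9, 39.8 and 33.9 CPM in Tol and 70.2, 50.2, 43.1 and 55.9 CPM in WT, with the same 2 libraries nearest to each other (-0.66, SE 0.14, edgeR adjusted p = 0.218, DESeq2 0.00532).

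The other 4 genes overlapped in cerebrum. Nr3c1, the receptor gene, was at 165 to 181 CPM in Tol, against 137 to 173 CPM in WT (0.15, adjusted p = 0.665). Klf9 was at 205 to 240.3 CPM against 164 to 283 CPM (-0.10, adjusted p = 0.893) and Zbtb16 at 37.5 to 70.6 against 33.6 to 72.7 CPM (-0.12, adjusted p = 0.913). Fkbp5 was at 20.7, 18.6, 29.6 and 25.9 CPM in Tol and 36.7, 21.0, 31.8 and 36.2 CPM in WT, where WT 2 fell among the Tol libraries (-0.41, SE 0.20, adjusted p = 0.549).

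Without the 2 libraries high in striatal markers, WT 3 and Tol 4, the same 5 members had an unadjusted p under 0.05, with differences of -0.44 to -0.76, Sgk1 moved to -0.59, and edgeR called 2 of all genes and no member. The sum of 10 immediate early genes, which follow neuronal activity, was 1299, 559, 1478 and 612 CPM in Tol and 1607, 2780, 1047 and 1564 CPM in WT. Of these genes 9 of 10 were lower, 2 with an unadjusted p under 0.05, at a median of -0.73, and the groups overlapped for all 10. The 10 astrocyte markers summed to 6053 to 7298 CPM in Tol, against 6411 to 7136 CPM in WT, with 7 of 10 lower, 4 lower and 1 higher with an unadjusted p under 0.05, at a median of -0.21. The 8 oligodendrocyte markers summed to 4767 to 5804 CPM against 5039 to 7577 CPM, all 8 lower, 1 with an unadjusted p under 0.05, at a median of -0.26. The 8 macrophage and microglia markers summed to 238 to 290 CPM against 258 to 322 CPM, all 8 lower, 2 with an unadjusted p under 0.05, at a median of -0.14. No marker of these lists was at 0, and their part in the member values was not tested.

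**Figure D3:**
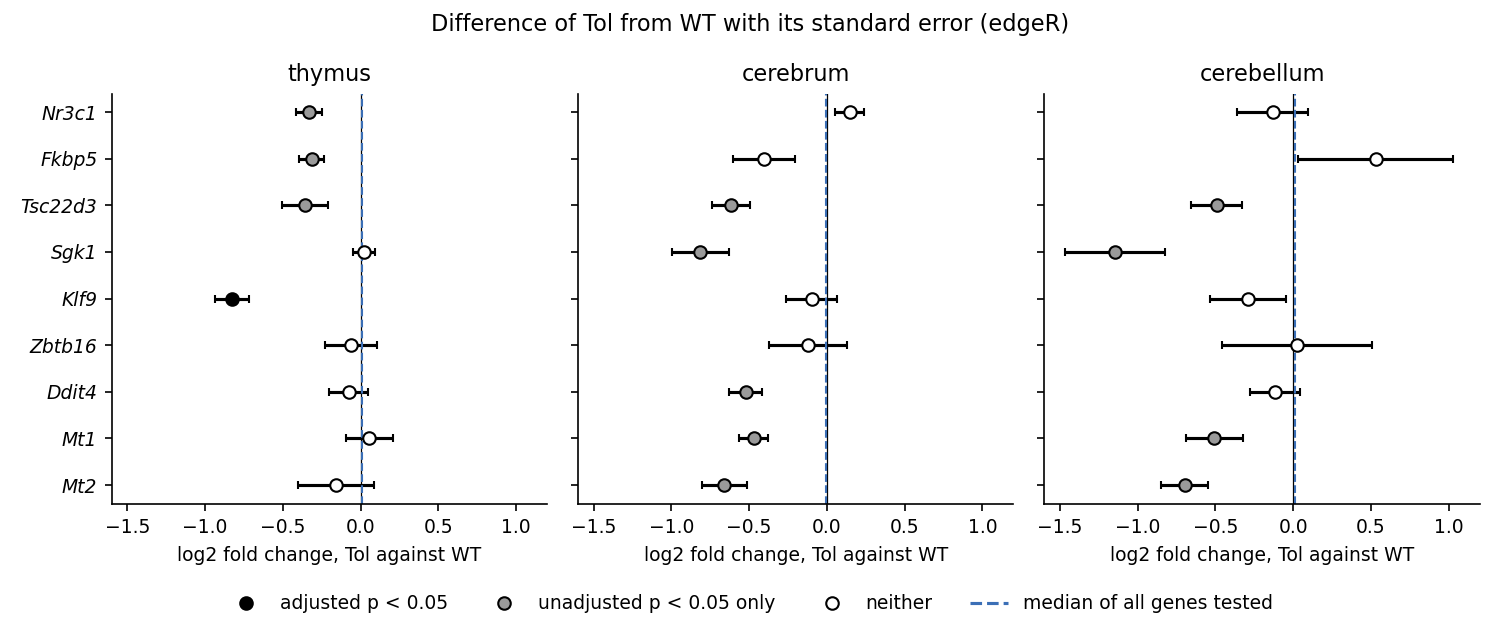
Difference of Tol from WT for each gene in each organ, as log2 fold change with bars of 1 standard error from edgeR, filled black for an adjusted p under 0.05, grey for an unadjusted p alone and white for neither. Klf9 in thymus (-0.83) is the single black point, 5 cerebrum targets lie between -0.47 and -0.81 in grey, and the dashed line of all genes stays at 0.01 or nearer to 0.

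In cerebellum, with 2 Tol libraries, no gene of 16662 passed the edgeR test after adjustment (0%), and 324 were higher and 203 lower at an unadjusted p under 0.05. Here 4 of the targets that stood apart in cerebrum were below every WT library, in both Tol libraries. Sgk1 was at 53.4 and 41.5 CPM in Tol and 80.8, 151, 115 and 79.0 CPM in WT (-1.15, SE 0.32, adjusted p = 0.957). Mt2 was at 51.8 and 52.4 CPM in Tol and 78.5, 102, 75.0 and 88.7 CPM in WT (-0.70, SE 0.15). Mt1 was at 91.0 and 92.4 CPM against 118, 159, 108 and 146 CPM (-0.51, SE 0.18). Tsc22d3 was at 78.2 and 91.0 CPM against 123, 144, 108 and 109.9 CPM (-0.49, SE 0.16).

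These 4 of 9 had an unadjusted p under 0.05 and were lower, where 1.22% of all genes did so, and groups that did not overlap with Tol lower made up 5.26% of all genes. DESeq2 called no member and 0.0728% of all genes. Without the library labelled cerebellum Tol 2, and with the 1 Tol library left taken to vary like the WT libraries, the differences were -0.9985 for Sgk1, -0.73 for Mt2, -0.63 for Tsc22d3 and -0.54 for Mt1. With 1 Tol library left, these differences are given without a p-value.

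The remaining 5 genes depended on that library. Nr3c1 was at 152 CPM in Tol 1 and 85.8 CPM in Tol 2, on either side of the WT range of 123 to 147 CPM. Fkbp5 was at 7.38 and 21.5 CPM against 6.85 to 14.4 CPM, and Zbtb16 at 4.45 and 14.2 CPM against 6.68 to 12.3 CPM. Klf9 (193 and 112 against 156 to 213 CPM) and Ddit4 (43.4 and 32.1 against 36.8 to 46.9 CPM) had Tol 2 below every WT library and Tol 1 within their range. With both Tol libraries the differences were -0.13 for Nr3c1, 0.53 for Fkbp5, 0.02 for Zbtb16, -0.29 for Klf9 and -0.12 for Ddit4. Without Tol 2 all 5 turned, to 0.20, -0.47, -1.08, 0.03 and 0.06. The sum of 8 choroid plexus markers was 1361 CPM in WT 2 and 4843 CPM in WT 4. It was 22.1 to 49.6 CPM in the other cerebellum libraries. The sum of 8 oligodendrocyte markers was 17610 CPM in WT 2, against 4797 to 9677 CPM in the other cerebellum libraries. Sgk1, Tsc22d3, Mt1 and Mt2 were also highest in WT 2. Of the oligodendrocyte markers 7 of 8 were lower in Tol, 0 with an unadjusted p under 0.05. Fibroblast markers were 8 of 8 higher in Tol, 4 with an unadjusted p under 0.05. The part of these lists in the member values was not tested.

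Whether the genotype difference itself differed between thymus and cerebrum was tested in 16 libraries. No member passed after adjustment, where 19 of 17774 genes (0.107%) did, and 5 of 9 had an unadjusted p under 0.05, against 16.5% of all genes. Sgk1 had the lowest p, with a cerebrum difference minus thymus difference of -0.84 on the log2 scale (SE 0.21, adjusted p = 0.104). Nr3c1 (0.47, SE 0.14, adjusted p = 0.129) and Klf9 (0.72, SE 0.21, adjusted p = 0.131) had the opposite sign. Nr3c1 was lower in Tol in thymus (-0.33) and not in cerebrum (0.15). Klf9 was lower in both, by more in thymus (-0.83) than in cerebrum (-0.10). Mt1 (-0.53, adjusted p = 0.166) and Ddit4 (-0.45, adjusted p = 0.204) followed. DESeq2 called Sgk1 (adjusted p = 0.015), Nr3c1 (0.0288) and Klf9 (0.0394), where it called 3.64% of all genes. Tsc22d3 (-0.26, adjusted p = 0.577), Mt2 (-0.51, adjusted p = 0.425), Fkbp5 (-0.10, adjusted p = 0.88) and Zbtb16 (-0.07, adjusted p = 0.969) had negative differences in both organs. For these genes no difference between organs was detected by either tool.

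**Figure D4:**
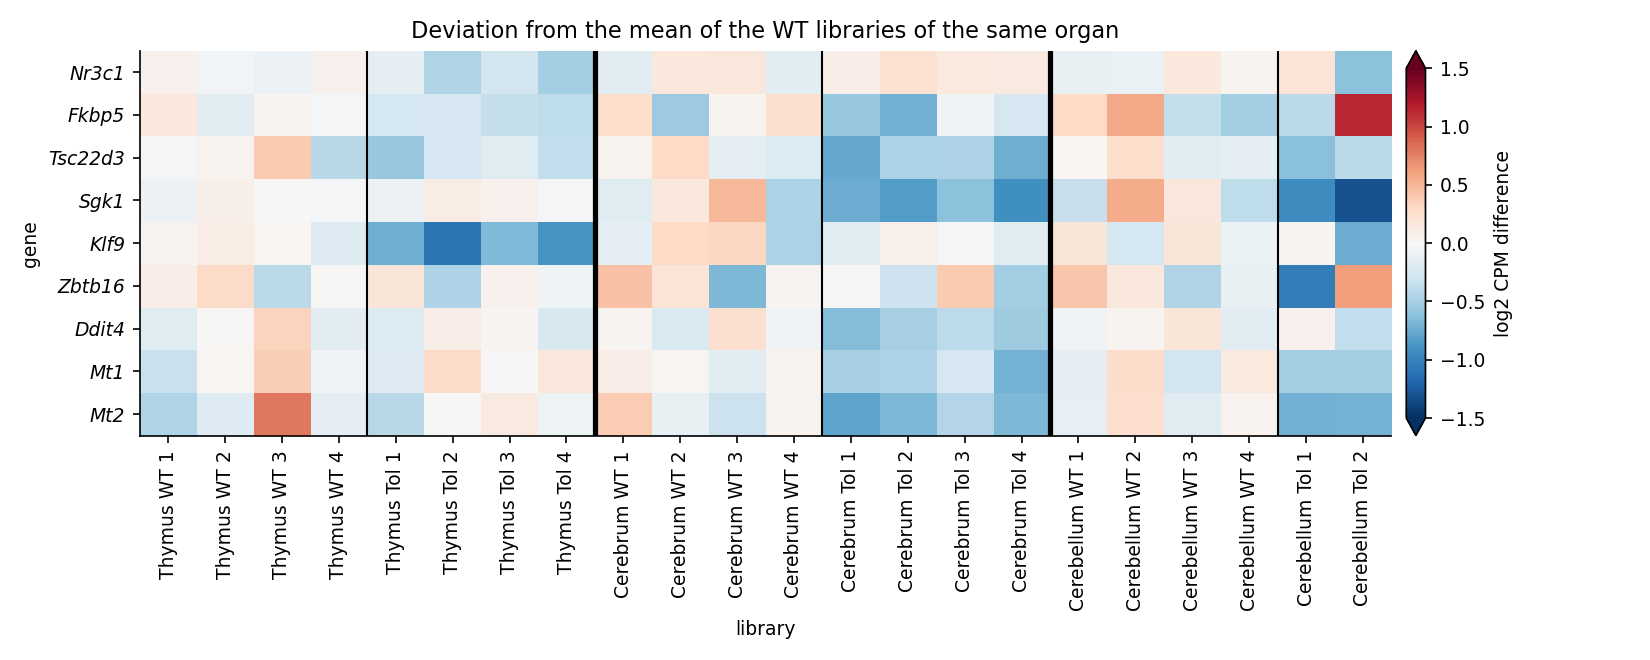
Log2 CPM of each gene (rows) in each of the 22 libraries (columns) minus the mean of the WT libraries of the same organ, in blue where lower and red where higher. Tol cerebrum libraries have 7 or 8 of 9 genes below the WT mean, Tol thymus libraries 4 to 8, with Klf9 the darkest row, and Tol cerebellum libraries 6 and 7.

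Counted by library, 8, 6, 4 and 8 of the 9 members lay below the WT mean in the 4 Tol thymus libraries, and 8, 7, 7 and 8 in the 4 Tol cerebrum libraries. In cerebellum the counts were 6 and 7. In WT libraries they were 5, 3, 2 and 7 in thymus, 3, 3, 4 and 5 in cerebrum, and 5, 2, 5 and 6 in cerebellum. The genotypes overlapped by this count in thymus and cerebellum and not in cerebrum. WT libraries were measured against a mean they are part of, and Tol libraries were not. The count therefore restates the gene differences above and is no separate test. Some members also varied together within groups. After the mean of each organ and genotype was taken out, Mt1 and Mt2 had a Pearson r of 0.83 over the 22 libraries, and the ratio of their CPM had a median of 1.78 in thymus (1.18 to 1.93), 1.97 in cerebrum (1.46 to 2.19) and 1.603 in cerebellum (1.44 to 1.76). Nr3c1 and Klf9 had an r of 0.73, Tsc22d3 had 0.57 with both metallothioneins, Sgk1 and Ddit4 had 0.55, and Zbtb16 and Ddit4 had -0.60. These are descriptions over libraries that share organ, depth and scaling, and they include the library labelled cerebellum Tol 2.

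By the same measure over 14086 genes, Nr3c1 was most like Pknox1 (r = 0.97) and Arhgef2 (0.94), Klf9 most like Tmem56 (0.90) and Gm30970 (0.89), and Zbtb16 most like Prrg3 (0.94) and Tppp (0.92). Sgk1 was most like Nfkbia (0.82), the gene of the NF-kappaB inhibitor IkappaB-alpha, and Rnf130 (0.79). Tsc22d3 had Aldh5a1 (0.87) and Nudt9 (0.83), Fkbp5 had Neurl1b (0.82) and Haus8 (0.81), and Ddit4 had Mrpl16 (0.76) and Ap4b1 (0.74). Mt1 had Aph1c (0.87) and Klk8 (0.84).

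The wider set of 37 other genes that glucocorticoids are known to induce, from Per1, a clock gene, to Cdkn1a, the gene of the cell cycle inhibitor p21, was counted in the same way. In cerebrum 31 of 36 tested were lower in Tol (51.4% of all genes were), 15 lower and 0 higher with an unadjusted p under 0.05 (4.85% of all genes were lower at that level), at a median of -0.35. None passed edgeR's adjustment. Tiparp, which encodes a mono-ADP-ribosyltransferase, had the lowest p (-1.03, SE 0.17, adjusted p = 0.157). DESeq2 called 7 of 35, where it called 0.682% of all genes as lower. They were Per1, Cdkn1a, Klf15, Tiparp, Irs2, Ppp1r3c and Plekhf1, names given after their values were seen. Without the 2 cerebrum libraries high in striatal markers edgeR called 1 of the 36 as lower, where 2 of all 15758 genes passed.

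In thymus 27 of 37 were lower (48.6% of all genes were), 6 lower and 3 higher with an unadjusted p under 0.05 (11.1% of all genes were lower at that level), at a median of -0.13, and Per1 had the lowest p (-0.39, SE 0.07, adjusted p = 0.0548). DESeq2 called 5 of 35, all lower, where it called 9.68% of all genes in either direction. Without thymus Tol 1 edgeR called 5 lower and 1 higher, where 2978 of all genes passed. In cerebellum 26 of 36 were lower (48.2% of all genes were), 8 lower and 1 higher with an unadjusted p under 0.05 (1.22% of all genes were lower at that level), at a median of -0.21. Per1 again had the lowest p (-0.87, SE 0.12, adjusted p = 0.957) and was the 1 gene of 32 that DESeq2 called. Without the library labelled cerebellum Tol 2 the median was -0.33, with 29 of 36 lower in direction. The lists were written with earlier results of these data known, and their direction is not independent evidence.

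The genes of proteins that hold, carry and assist the receptor were counted too. Of 23 tested in thymus 19 were lower in Tol (48.6% of all genes were), 8 with an unadjusted p under 0.05 (11.1% of all genes), at a median of -0.21, and Hspa8, a constitutive heat shock protein of the receptor complex, had the lowest p (-0.57, SE 0.11, adjusted p = 0.064). Without thymus Tol 1, 13 were called lower and 1 higher, where 1389 of all 16370 genes were called lower and 1589 higher. In cerebrum 11 were lower and 12 higher, at a median of 0.01, with the coactivator gene Crebbp at 0.21 (adjusted p = 0.358). In cerebellum 14 were lower and 9 higher, none with an unadjusted p under 0.05, at a median of -0.03. With the library labelled cerebellum Tol 2 left out, 10 of 23 were lower, at a median of 0.08.

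A list of genes around the metal response, which includes genes of metal sensing and transport, had medians on either side of 0. Its genes need not respond to metal in the direction of Mt1 and Mt2, which was not tested. In cerebrum 6 of 9 tested were lower (51.4% of all genes were), 2 lower and 1 higher with an unadjusted p under 0.05 (4.85% of all genes were lower at that level), at a median of -0.07, and Mtf1, the metal-sensing transcription factor, had the lowest p (-0.21, SE 0.07, adjusted p = 0.361). In cerebellum the median of 10 was 0.22, with the transporter gene Slc30a10 at 0.96 (adjusted p = 0.957), and in thymus the median of 8 was -0.12, with the zinc importer gene Slc39a10 at -0.31 (adjusted p = 0.0841). Relatives of the members by family, such as other Klf, Fkbp and Tsc22d genes, had medians of -0.06 in thymus, -0.05 in cerebrum and -0.0031 in cerebellum. Their lowest p in cerebrum was that of Klf10 (-0.87, SE 0.15, adjusted p = 0.157).

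**Figure D5:**
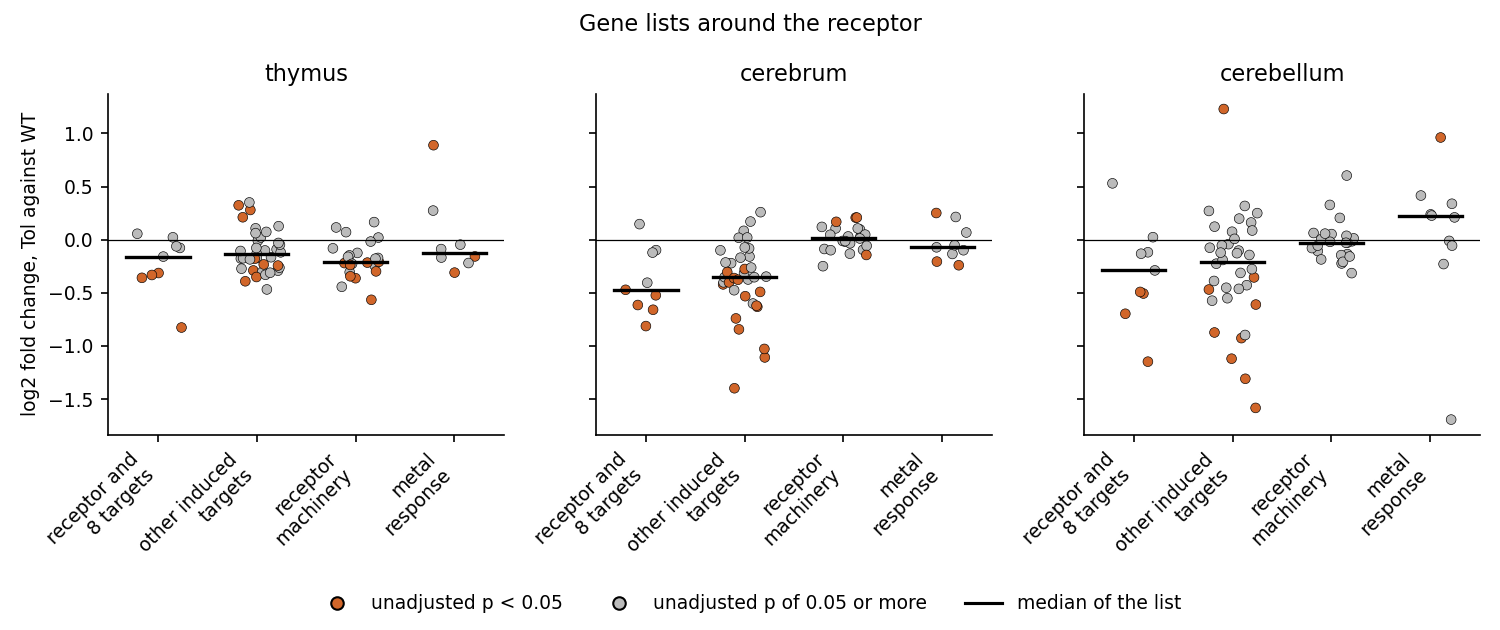
Log2 fold change of Tol against WT for each tested gene of 4 lists in each organ, in orange for an unadjusted p under 0.05 and grey otherwise, with a line at the median of the list. The receptor with its 8 targets and the other induced targets have medians of -0.47 and -0.35 in cerebrum, while the receptor machinery and the metal response genes have 0.01 and -0.07.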

How the data were processed

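RNA was sequenced as single-end reads from a TruSeq Stranded mRNA kit. The authors deposited 1 table per organ of estimated counts per Ensembl gene, made with Salmon 0.14.1 on GRCm38 as whole numbers without normalization. The submitters' processing notes also name edgeR 3.9. Whether counting used strand, and how transcripts were summed to genes, is not given in the sources used here.

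The members and gene lists were chosen with earlier results of these data known. Of 34585 gene IDs, 34530 were found in GENCODE vM21. Tol and WT were compared per organ with edgeR 4.0.16 (R 4.3.3, TMM, filterByExpr, quasi-likelihood F test). Adjusted p-values are Benjamini-Hochberg values over all genes tested, the Tol transcript included where it was tested. Counts of genes leave the Tol transcript out. Further fits tested the interaction of genotype and organ (16 libraries) and the organs in WT (12 libraries). DESeq2 1.42.0 was an alternative. Counts per library were scaled to CPM with 1 set of TMM factors over 22 libraries, and to CPM per kb by principal transcript length. Totals were 16319117 to 34776973 counts in thymus, 14543698 to 23311643 in cerebrum and 23340005 to 27057348 in cerebellum. The scripts were tested on simulated data.

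Named genes were the members, and of every other list the 4 genes with the lowest p among those passing, or else the 1 with the lowest p. For each member the 2 genes with the highest correlation were named, except for Mt2, whose result is not reported here. Alternatives covered normalization, tool, count filters, moderation, samples in the fit, replicate block, GC content and length, depth and single libraries. Leaving out the cerebrum libraries high in striatal markers was chosen after seeing the data, as were the recounts of the lists without 1 library of cerebellum or thymus.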

Additional observations from a re-analysis of the deposited data

Results flagged for a closer look

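Of 50 groups of 4 libraries tested for a library that stands apart from the other 3, in total counts and in the CPM of each member, 4 had one, and chance gives about 1 in 20, or 2.5. The total of thymus Tol 1 was 34776973 counts, with 20527399 as the nearest. The total of thymus WT 4 was 29145285 counts, with 17940261 as the nearest. The total of cerebrum Tol 4 was 14543698 counts, with 22147602 as the nearest, and this library was also high in striatal markers. Mt2, the metallothionein gene, was at 10.71 CPM in thymus WT 3, with 5.563 CPM as the nearest WT library, and without it the Tol difference of Mt2 in thymus went from -0.16 to 0.19.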

How the results depend on the processing

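Each comparison was repeated under the alternatives and without each library in turn. Of 1197 values of single genes under an alternative, 1128 kept their direction and their side of the threshold, 30 turned, 26 passed only under the alternative and 13 no longer passed, and the cause was not tested.

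The member calls in thymus, 1 with edgeR, were 3 with DESeq2, 0 with all 22 libraries in 1 fit (Klf9 adjusted p = 0.0655) and 0 with the replicate block (Klf9 adjusted p = 0.0513), and 0 to 3 when single libraries were left out. Calls over all thymus genes, 16 with edgeR, were 1267 with DESeq2, 130 without a filter, 85 with at least 10 counts in every library, 38 with robust moderation, 29 in 1 fit, 53 with GC content and length removed, and 0 to 2978 without single libraries. The replicate block gave 5, and 9 with GC content and length removed. Same-numbered Tol and WT libraries did not deviate together throughout (r of -0.24 to 0.13 in thymus, -0.38 to 0.47 in cerebrum, -0.16 and 0.70 in cerebellum), and the labels do not say whether a number marks shared animals. In cerebrum, with 0 called by edgeR, DESeq2 gave 5 members and 184 genes. One fit gave 25 genes, the libraries high in striatal markers left out 2, and single libraries left out 0 members and 0 to 7 genes. In cerebellum DESeq2 gave 10 genes and single libraries left out 0 members and 0 to 2 genes. The interaction, with 0 members and 19 genes, gave 3 and 495 with DESeq2, 48 genes with at least 10 counts, 0 in 1 fit and 4 with the replicate block. Without single libraries it gave 0 to 2 members and 2 to 1116 genes, the highest of both without thymus Tol 1. The WT organ comparisons gave 9, 3 to 5 and 8 to 9 members without single libraries. DESeq2 leaves more genes untested, and its adjusted p is over fewer genes. Its unadjusted p differed as well. For the 5 members it called in cerebrum this was 5.989e-06 to 2.603e-05, against 0.000653 to 0.00157 with edgeR. The part of each in the calls was not tested.

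The directions of these genes turned. In thymus Mt1 went to -0.0352 with GC content and length removed and to -0.0197 with the replicate block added. In cerebrum Klf9 went to 0.0272 without the libraries high in striatal markers. In cerebellum Zbtb16 went to -0.0107 without a filter, -0.013 in 1 fit, -0.4582 with the replicate block and -0.4349 with the block and GC content and length removed, and Fkbp5 to -0.0335 with the block. Without single libraries, thymus Sgk1 ran from -0.011 to 0.0703, Zbtb16 from -0.1628 to 0.0475, Ddit4 from -0.1414 to 0.062, Mt1 from -0.037 to 0.2024 and Mt2 from -0.2946 to 0.1897. In cerebrum Klf9 ran from -0.2348 to 0.0043 and Zbtb16 from -0.3145 to 0.0334. In cerebellum Nr3c1 ran from -0.5818 to 0.2028, Fkbp5 from -0.4706 to 1.1101, Klf9 from -0.7112 to 0.029, Zbtb16 from -1.0771 to 0.6344 and Ddit4 from -0.3339 to 0.0615. The interaction of Zbtb16 ran from -0.2522 to 0.0964.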
